A study of Mus musculus with 96 samples.

Results

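The brain libraries of the series were compared by their level of Pmch, the gene for the precursor of melanin-concentrating hormone. Of 15 brain libraries among 96 libraries in all, the 5 with the highest Pmch formed the Pmch-high side and the 5 with the lowest formed the Pmch-low side. Levels are CPM, the estimated count of a gene per 1000000 estimated counts of the library. Libraries are numbered within each side by falling Pmch. The 5 libraries between the sides are called middle 1 to middle 5 and are described without a test.

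The series measured RNA in 7 tissues of mice aged 2 months. The labels list 3 brain samples for each of 4 reprogrammable strains, 4Fj, 4FsB, 4Fk and 4FsA, and 3 for WT. These strains were made to switch on reprogramming factors in the living animal, and the sources used here give neither their promoters nor an inducing treatment. The expression table names each brain library by tissue and a running number, so both sides are brain of 2-month-old mice of unknown genotype, and whether the sides differ in genotype was not tested. The labels do not say which piece of the brain was taken or whether replicates are separate animals, so p-values measure the spread between these libraries.

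Melanin-concentrating hormone is made by neurons of the lateral hypothalamus and zona incerta, where orexin neurons, which express Hcrt, lie among them. Vasopressin (Avp) and oxytocin (Oxt) come from the large neurons of the paraventricular and supraoptic nuclei, and arcuate neurons make Pomc and Agrp. The thalamus lies above these nuclei and the cerebral cortex farther away, so each region carries its own set of marker transcripts.

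Pmch (ENSMUSG00000035383) measured 166.9, 125.5, 82.8, 71.8 and 56.2 CPM in the Pmch-high libraries, against 0.298, 0.173, 0.0894, 0.0834 and 0 CPM in the Pmch-low libraries. These values chose the sides and receive no test. Just outside the sides, middle 1 had 38.8 CPM and middle 5 had 0.396 CPM. Over 20 CPM was found in 9 libraries and under 1 CPM in 6, so the lower cut fell inside a cluster of near-zero libraries. A Pmch count of 0 allows up to 0.221 CPM in low 5, by counting error only.

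The libraries of the Pmch-high side were not alike. Across the 3000 most variable genes, high 1, high 2 and high 3 correlated with each other at 0.958 to 0.977 and with the other 12 libraries at only 0.632 to 0.81, while those 12 correlated with each other at 0.825 to 0.984. These are correlations across genes, which are not independent replicates. High 2 and high 3 had no Y-linked counts (summed over Ddx3y, Eif2s3y, Kdm5d and Uty), and the other 13 libraries had 103.9 to 176.1 CPM. Xist measured 193.9 and 172.0 CPM in high 2 and high 3 and at most 5.82 CPM in the other 13 libraries. Both libraries were on the Pmch-high side, so the sides were not balanced in these sex-linked genes. Total estimated counts were 11181945 to 14444384 in Pmch-high and 10083867 to 13551858 in Pmch-low libraries, and mitochondrially encoded genes took 5.89% to 7.96% of counts in Pmch-high and 5.43% to 7.93% in Pmch-low libraries. The called genes described below are therefore also given for high 4 and high 5 alone against the 5 Pmch-low libraries.

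**Figure D1:**
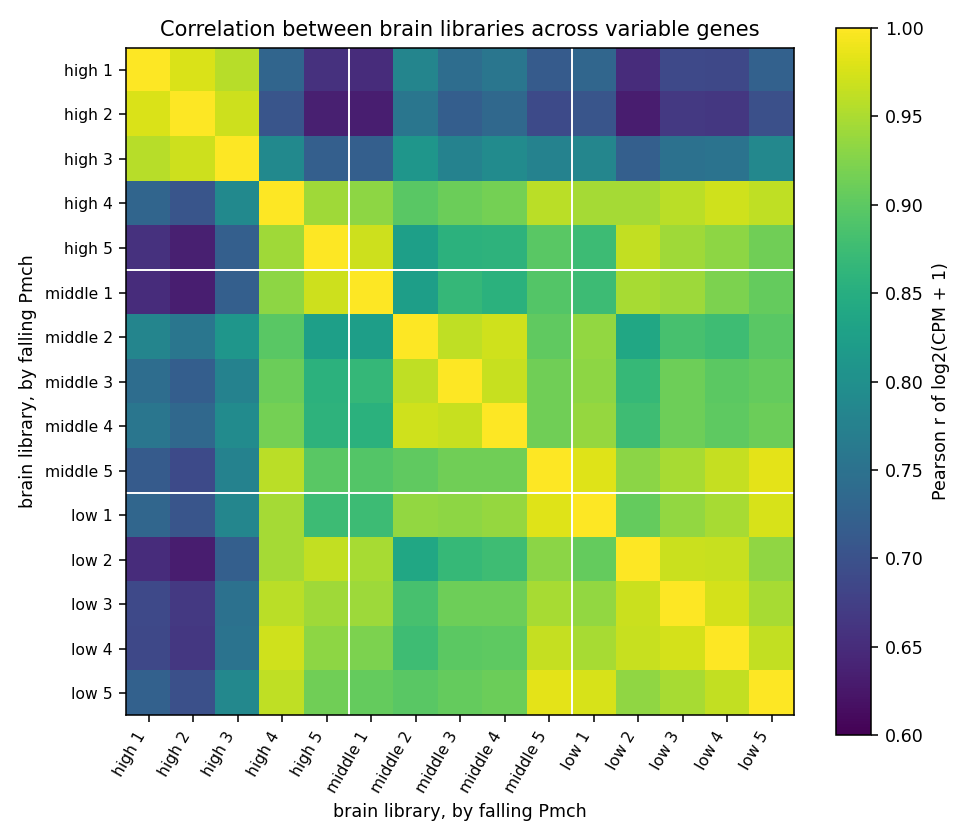
Pearson correlation of log2(CPM + 1) between the 15 brain libraries, ordered by falling Pmch, over 3000 variable genes. High 1 to high 3 form a block at 0.958 to 0.977, and high 4 correlated with the 5 Pmch-low libraries more closely than with that block.

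Of 15774 genes tested with edgeR, leaving Pmch out, 70 were higher on the Pmch-high side (0.444% of those tested) and 8 were lower (0.0507%), at a Benjamini-Hochberg adjusted p under 0.05. All 5 Pmch-high libraries lay above all 5 Pmch-low libraries for 465 genes (2.95%) and below them for 273 genes (1.73%). A call says that a gene went with Pmch over libraries that were chosen by Pmch. The low-count filter was applied by side, so a gene near 0 on the Pmch-low side was tested only because the Pmch-high side carried it. Such genes, among them Hcrt, Shox2, Abhd12b and Ppp1r17, could only come out higher. DESeq2 called 1345 higher and 571 lower, and the 78 edgeR calls were all among them. Without high 4 the edgeR calls numbered 1958 higher and 1130 lower, without high 5 they numbered 2863 higher and 2155 lower, and without any other single library they were 22 to 35 higher and 0 or 1 lower in each fit. High 4 and high 5 alone gave 20 higher and 0 lower, of which 16 were among the 78. With fewer libraries, that fit can miss the threshold for a gene whose fold change is similar.

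A set of 20 genes was called in each of the 10 fits that leave out a library, and 12 of them in all 21 fits run. Those 12 were Hcrt, Sparc, Gpx3, Cbln1, Nhlh2, Fezf1, Ntng1, AW551984, Patj, Ppp1r17, Avp and Agt, and all were higher on the Pmch-high side. The other 8 were Trh, Foxb1, Tcf7l2, Synpo2, Slc17a6, Shox2, Abhd12b and Sytl4. Of the other called genes named below, Gal and C1ql2 were called in 8 of those 10 fits, Zcchc12 in 6, Gpr101, Plekhg1 and Wnt9a in 4, Otp, Prlr, Resp18, Scg2 and Slc6a11 in 3, and Gpr165, Nap1l5, Sncg and the other 7 genes that fell in 2. With the Y-linked level as a term, 26 genes were higher and 0 lower, of which 25 were among the 78. Sparc, Gpx3, AW551984 and Patj were singled out after their values were seen. In bulk RNA, fewer cells of a type and less RNA per cell cannot be told apart.

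**Figure D2:**
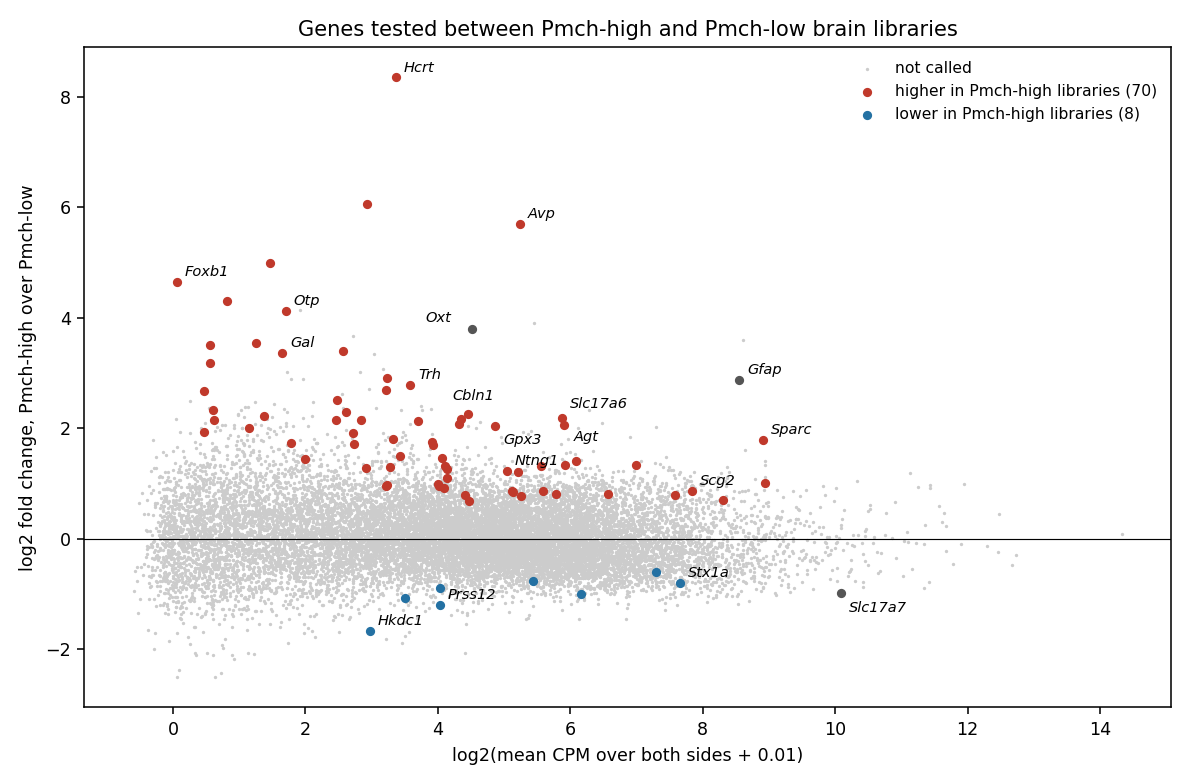
Log2 fold change of Pmch-high over Pmch-low libraries against mean level for the 15774 tested genes, with called genes in red (higher) and blue (lower) and dark grey for labelled genes that were not called. Hcrt and Avp are labelled at 8.36 and 5.70 on the log2 scale, and Shox2, which is not labelled, lies between them at 6.07.

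The orexin gene had the largest fold change of the called genes. Hcrt (ENSMUSG00000045471), the precursor of the wake-promoting orexin peptides, measured 19.1, 24.8, 24.6, 22.5 and 11.8 CPM in Pmch-high libraries, against 0, 0.0865, 0, 0.167 and 0 CPM in Pmch-low libraries. The Pmch-low libraries held 3 Hcrt counts in all and the Pmch-high libraries 1256, a ratio of 402 with an exact 95% counting interval of 137 to 1950. Every Pmch-high library was far above every Pmch-low library, and the change passed the test (edgeR log2 fold change 8.36 ± 0.50 SE, adjusted p = 2.76e-05, n = 5 libraries a side). It was 8.07 with high 4 and high 5 alone (edgeR adjusted p = 0.00125). In the libraries that belonged to neither side, Hcrt was 6.42 to 9.90 CPM in middle 1 to middle 4 and 0 in middle 5.

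Among the 8 peptides of the lateral and dorsal hypothalamus, Hcrt, Trh and Gal rose, none fell, and 4 lay above the Pmch-low side without overlap. The median member difference was 1.32 in mean log2(CPM + 1), where all tested genes had a median of 0.02. Trh, the precursor of thyrotropin-releasing hormone, measured 26.6, 20.4, 17.2, 19.1 and 21.4 CPM in Pmch-high libraries, against 5.95, 1.12, 2.06, 2.84 and 3.17 CPM in Pmch-low libraries. Its groups were well apart (edgeR log2 fold change 2.78 ± 0.35 SE, adjusted p = 0.00592, n = 5 a side). Gal, which encodes galanin, measured 5.28, 5.24, 5.68, 6.45 and 5.99 CPM in Pmch-high libraries, against 0.496, 0.0865, 0.894, 0.0834 and 1.11 CPM in Pmch-low libraries. The galanin values were nearly equal within the Pmch-high side and uneven within the Pmch-low side (edgeR log2 fold change 3.36 ± 0.52 SE, adjusted p = 0.0193, n = 5 a side). For high 4 and high 5 alone, the fold changes were 2.72 for Trh (edgeR adjusted p = 0.0573) and 3.47 for Gal (adjusted p = 0.113), so neither passed there.

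The other members of this list showed no call with edgeR. Cartpt, the precursor of the CART peptides, ranged over 9.02 to 32.3 CPM in Pmch-high and 1.82 to 15.6 CPM in Pmch-low libraries. Nts, the neurotensin gene, ranged over 8.61 to 23.7 CPM in Pmch-high and 1.99 to 9.02 CPM in Pmch-low libraries, so both genes overlapped between the sides. DESeq2 called Nts higher (adjusted p = 0.0184) and did not call Cartpt (0.0879). Pdyn, the prodynorphin gene, ran the other way in its medians, at 51.4 CPM in Pmch-high and 64.2 CPM in Pmch-low libraries (edgeR log2 fold change -0.25, adjusted p = 0.259, n = 5 a side). Npvf, the precursor of RFamide-related peptides, and Qrfp were too low to test. Npvf had 22 counts over the Pmch-high libraries and 0 over the Pmch-low libraries, at least 7.04-fold higher against a floor of 3 counts over the side. Qrfp reached 0.984 CPM in Pmch-high and 0.885 CPM in Pmch-low libraries.

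Vasopressin rose, and oxytocin had the same ordering of groups without passing the edgeR test. Avp (ENSMUSG00000037727) measured 50.4, 50.4, 91.9, 77.2 and 100.4 CPM in Pmch-high libraries, against 0.397, 0.173, 0.0894, 1.00 and 5.02 CPM in Pmch-low libraries. Low 5, the library with no Pmch count, held the most Avp of its side, and the groups did not overlap (edgeR log2 fold change 5.70 ± 0.75 SE, adjusted p = 0.00807, n = 5 a side). Oxt measured 47.0, 24.8, 54.8, 40.5 and 46.9 CPM in Pmch-high libraries, against 0.298, 0, 10.1, 0.0834 and 4.50 CPM in Pmch-low libraries. Low 3 and low 5 carried Oxt while the other 3 had almost none, and the difference did not pass (edgeR log2 fold change 3.79 ± 0.93 SE, adjusted p = 0.0985, n = 5 a side). Over the 10 fits that leave out a library its adjusted p ran from 0.0238 to 0.235. DESeq2 called Oxt higher (adjusted p = 0.032). Avp and Oxt are neighbouring genes, and whether counting used strand is not given in the sources used here.

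The log2 fold change of Avp with high 4 and high 5 alone was 5.92 (edgeR adjusted p = 0.0207) and that of Oxt 3.82 (adjusted p = 0.374). The stress hormone gene Crh had medians of 5.74 CPM in Pmch-high and 4.34 CPM in Pmch-low libraries, and Sst, the somatostatin gene, had medians of 216 CPM in Pmch-high and 137 CPM in Pmch-low libraries. Both overlapped between the sides and neither was called, so 1 of 4 members of this list rose and the median member difference was 2.25.

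**Figure D3:**
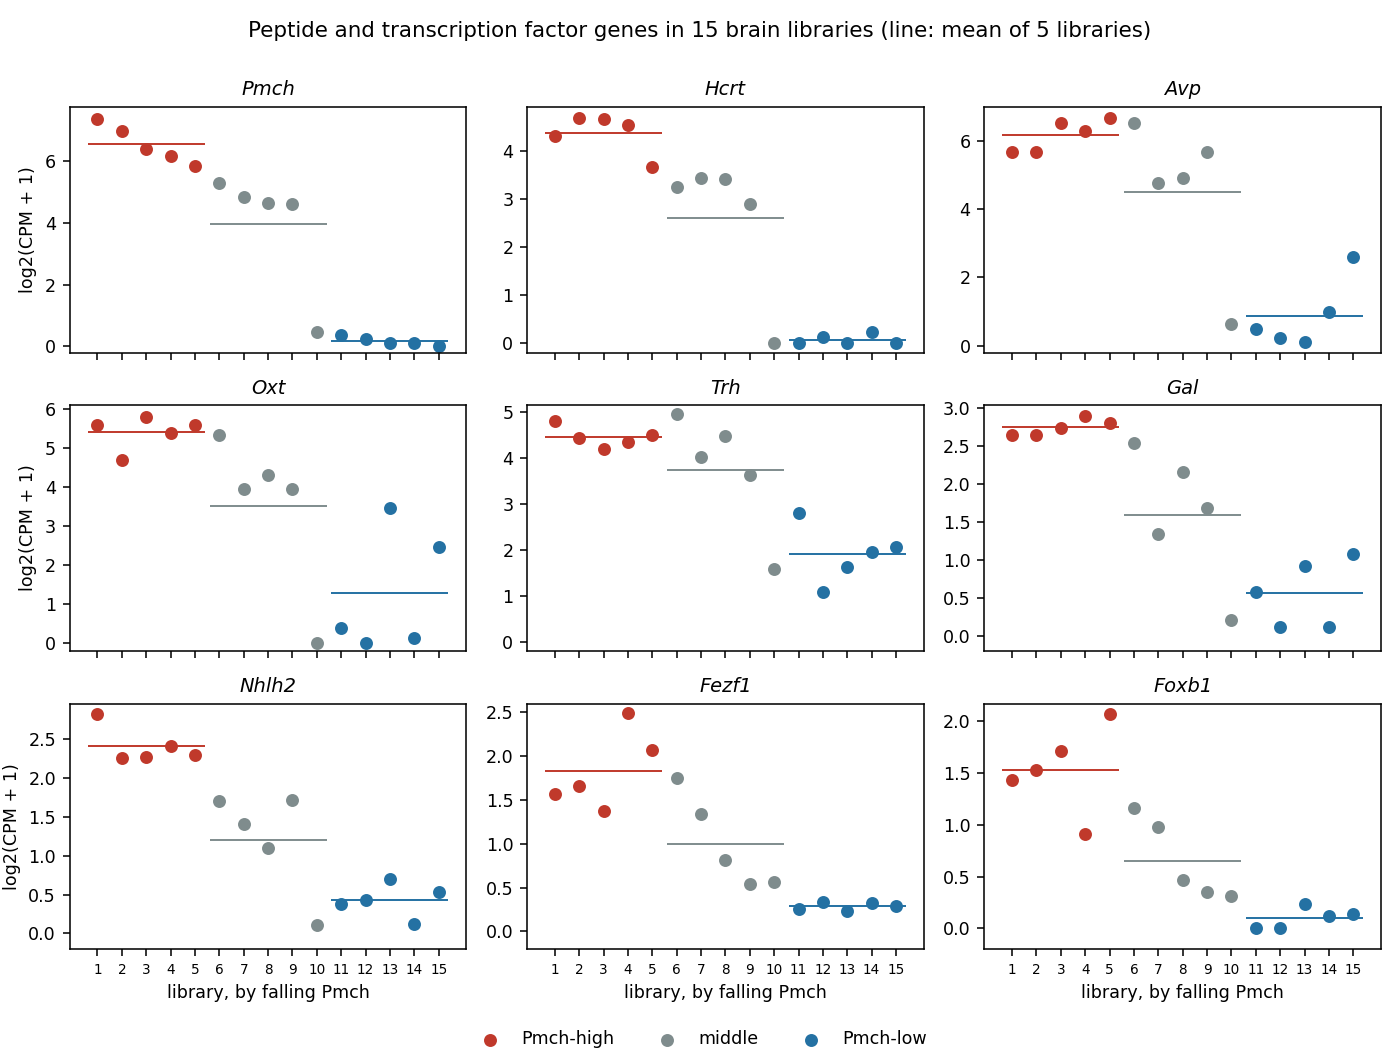
Levels of 9 genes in the 15 brain libraries as log2(CPM + 1), ordered by falling Pmch, with Pmch-high libraries in red, middle ones in grey and Pmch-low ones in blue, and a line at each mean of 5 libraries. The first 9 libraries carry Pmch, Hcrt and Avp, and middle 5 lies with the Pmch-low libraries.

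Arcuate peptides were not called with edgeR, 0 of 7, although 3 lay above the Pmch-low side without overlap. Pomc, the precursor of melanocortins and of pituitary ACTH, measured 12.8, 16.1, 39.3, 4.07 and 2.46 CPM in Pmch-high libraries, against 1.98, 1.04, 1.43, 1.58 and 1.18 CPM in Pmch-low libraries. High 1 to high 3 held most of it (edgeR log2 fold change 3.35 ± 0.67 SE, adjusted p = 0.0577, n = 5 a side). Prl, the prolactin gene of the pituitary, was 2.15, 27.4 and 385 CPM in high 1 to high 3 and 0 in high 4 and high 5, and was at most 0.626 CPM in Pmch-low libraries. Tshb, another pituitary hormone gene, was 0.447, 0.344 and 0.277 CPM in high 1 to high 3, 1.42 and 1.56 CPM in high 4 and high 5, and 0.346 to 1.11 CPM in Pmch-low libraries. The pituitary list level was 0.23 to 2.02 in Pmch-high and 0.16 to 0.74 in Pmch-low libraries, so it overlapped. Of the 9 pituitary genes 1 could be tested and 0 were called, and their part in the Pomc values was not tested. The tested gene was Gh, the growth hormone gene, at 6.17, 10.05, 27.28, 0.442 and 0 CPM in Pmch-high libraries. In Pmch-low libraries Gh reached 15.47 CPM in low 3 (edgeR adjusted p = 0.521). The Pomc log2 fold change with high 4 and high 5 alone was 1.14 (edgeR adjusted p = 0.552).

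Tac2, the neurokinin B gene, ranged over 8.49 to 15.6 CPM in Pmch-high and 2.60 to 6.84 CPM in Pmch-low libraries (edgeR adjusted p = 0.108, n = 5 a side). DESeq2 called Pomc and Tac2 higher (adjusted p = 1.11e-05 and 0.00749). Npy, the neuropeptide Y gene, which is also made by cortical interneurons, had medians of 41.6 CPM in Pmch-high and 44.0 CPM in Pmch-low libraries. Agrp, Kiss1, Ghrh and Galp were too low to test. Ghrh, the growth hormone-releasing hormone gene, had 53 counts over the Pmch-high libraries and 1 over the Pmch-low libraries, a ratio of 50.9 with an exact 95% counting interval of 8.75 to 2050. Agrp and Kiss1 reached 0.859 and 0.572 CPM in Pmch-high libraries and 0.221 and 0.205 CPM in Pmch-low libraries, and Galp had no count in any of the 10 libraries.

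The 12 other peptides, several of which are also made in the cortex and striatum, gave 0 calls and a median member difference of 0.27. Of these 12, 7 were tested. Vip, Tac1, Cck and Bdnf overlapped widely, with edgeR adjusted p of 0.888, 0.589, 0.94 and 0.362. Penk, the enkephalin gene abundant in striatum, had medians of 239 CPM in Pmch-high and 367 CPM in Pmch-low libraries (edgeR adjusted p = 0.217, n = 5 a side). Adcyap1, the PACAP gene, had medians of 21.4 CPM in Pmch-high and 9.43 CPM in Pmch-low libraries, and Grp had 4.99 CPM in Pmch-high and 2.77 CPM in Pmch-low libraries, without a call. Ucn3, a urocortin gene of the perifornical hypothalamus, was too low to test and lay at 0.601 to 1.31 CPM in Pmch-high and 0 to 0.179 CPM in Pmch-low libraries. Gnrh1, Nms, Prok2 and Nmu stayed at or under 0.992 CPM in all 10 libraries.

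Some transcription factors that set up hypothalamic nuclei rose. Of 28 members, 15 could be tested, 4 rose and none fell, and 11 of all 28 lay above the Pmch-low side without overlap. The 4 that rose, Nhlh2, Fezf1, Foxb1 and Otp, had 21, 13, 4.4 and 20 counts over the Pmch-low libraries. They passed the low-count filter only through the Pmch-high side, so they could not have come out lower. The median member difference was 0.63. Nhlh2, a factor of hypothalamic peptide neurons, measured 6.08, 3.78, 3.81, 4.33 and 3.94 CPM in Pmch-high libraries, against 0.298, 0.346, 0.626, 0.0834 and 0.443 CPM in Pmch-low libraries (edgeR log2 fold change 3.54 ± 0.39 SE, adjusted p = 0.00392, n = 5 a side). Fezf1, a factor of the ventromedial hypothalamus, measured 1.97, 2.15, 1.59, 4.60 and 3.20 CPM in Pmch-high libraries, against 0.198, 0.26, 0.179, 0.25 and 0.221 CPM in Pmch-low libraries (edgeR log2 fold change 3.51 ± 0.40 SE, adjusted p = 0.00392, n = 5 a side). Nhlh2 was highest in high 1 and Fezf1 in high 4, so the factors did not share one order within the side.

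Foxb1, a factor of the mammillary region, measured 1.70, 1.89, 2.29, 0.884 and 3.20 CPM in Pmch-high libraries, against 0, 0, 0.179, 0.0834 and 0.101 CPM in Pmch-low libraries (edgeR log2 fold change 4.65 ± 0.62 SE, adjusted p = 0.00836, n = 5 a side). Otp, which is needed for the neurons that make vasopressin, oxytocin and CRH, measured 3.13, 2.58, 4.50, 10.9 and 9.68 CPM in Pmch-high libraries, against 0, 0, 0.447, 0.667 and 0.516 CPM in Pmch-low libraries (edgeR log2 fold change 4.13 ± 0.72 SE, adjusted p = 0.0332, n = 5 a side). The highest Otp values were in high 4 and high 5, the reverse of the Pomc pattern. With those libraries alone, Nhlh2, Fezf1 and Otp passed (edgeR adjusted p = 0.0495, 0.0138 and 0.04) and Foxb1 did not (0.0889).

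Several factors were too low for the test and are named after their values were seen. Nkx2-4 had 54 counts on the Pmch-high side and none on the Pmch-low side, at least 17.3-fold higher against the floor. Sim1, which acts with Otp in the paraventricular nucleus, was 0.554 to 2.15 CPM in Pmch-high and 0 to 0.26 CPM in Pmch-low libraries. Six3 and Lhx8, which are also expressed in the basal forebrain, overlapped, with edgeR adjusted p of 0.99 and 0.582. Nkx2-1, the early marker of the ventral hypothalamus and basal forebrain, had medians of 5.66 CPM in Pmch-high and 3.07 CPM in Pmch-low libraries (edgeR adjusted p = 0.143, n = 5 a side).

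Receptors and signalling proteins enriched in the hypothalamus gave 3 calls higher and 0 lower of 20, of which 17 were tested. Of all 20, 7 lay above without overlap, and the median member difference was 0.67. Prlr, the prolactin receptor, measured 7.51, 9.28, 16.6, 7.96 and 6.31 CPM in Pmch-high libraries, against 1.49, 2.51, 1.70, 0.334 and 2.07 CPM in Pmch-low libraries (edgeR log2 fold change 2.52 ± 0.43 SE, adjusted p = 0.0332, n = 5 a side). The orphan receptor gene Gpr101 measured 18.7, 14.9, 14.9, 23.1 and 34.6 CPM in Pmch-high libraries, against 4.86, 3.03, 3.40, 3.34 and 9.15 CPM in Pmch-low libraries (edgeR log2 fold change 2.13 ± 0.35 SE, adjusted p = 0.0266, n = 5 a side). Gpr165, another orphan receptor, was 10.7 to 21.4 CPM in Pmch-high and 1.69 to 6.27 CPM in Pmch-low libraries (edgeR adjusted p = 0.0404, n = 5 a side). It departed from the peptides in the middle libraries, with 18.5 CPM in middle 1 and only 0.623 to 1.06 CPM in middle 2 to middle 4. Irs4 and Calcr were not called (edgeR adjusted p = 0.0682 and 0.114), and Irs4 did not overlap between the sides. Mchr1, a receptor gene for melanin-concentrating hormone, had medians of 16.3 CPM in Pmch-high and 26.7 CPM in Pmch-low libraries. Mchr1 and Oxtr ran the other way without a call, with log2 fold changes of -0.523 and -0.097 (edgeR adjusted p = 0.181 and 0.831). Only Gpr101 of the called receptors passed with high 4 and high 5 alone (edgeR adjusted p = 0.0491). The log2 fold changes of Prlr and Gpr165 were 2.09 and 1.84 there.

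A list of 11 genes enriched in the hypothalamus, drawn up around imprinted genes, gave 3 calls higher and 0 lower, and the median member difference was 1.01. The called members were Zcchc12, Resp18 and Nap1l5, of which only Nap1l5 is known as an imprinted gene, while Zcchc12 is X-linked and Resp18 encodes a protein of secretory granules. Zcchc12 measured 238, 188, 182, 146 and 165 CPM in Pmch-high libraries, against 87.9, 57.6, 68.3, 52.6 and 93.6 CPM in Pmch-low libraries (edgeR log2 fold change 1.33 ± 0.20 SE, adjusted p = 0.0159, n = 5 a side). Resp18 and Nap1l5 also rose, by 1.40 and 1.00 on the log2 scale (edgeR adjusted p = 0.0245 and 0.0332). All 3 were highest in high 1, and with high 4 and high 5 alone none passed (edgeR adjusted p = 0.123, 0.225 and 0.0837). The imprinted genes Nnat and Magel2 overlapped between the sides and were not called (edgeR adjusted p = 0.113 and 0.156).

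Genes of the dense core vesicle, which packages neuropeptides, split among themselves, with 1 call of 12 and a median member difference of -0.02. Scg2, the secretogranin II gene, measured 303, 287, 335, 260 and 297 CPM in Pmch-high libraries, against 172, 156, 135, 141 and 198 CPM in Pmch-low libraries (edgeR log2 fold change 0.86 ± 0.14 SE, adjusted p = 0.0245, n = 5 a side). Chgb, the chromogranin B gene, measured 86.0, 102, 186, 315 and 331 CPM in Pmch-high libraries, against 350, 393, 346, 354 and 344 CPM in Pmch-low libraries, and was not called (edgeR log2 fold change -0.84, adjusted p = 0.141). Scg2 was not called with high 4 and high 5 alone (edgeR adjusted p = 0.138). High 1 to high 3 were the low ones for Chgb, while high 4 and high 5 sat close to the Pmch-low side. Pcsk1 and Pcsk2, the prohormone convertase genes, had log2 fold changes of 0.94 and -0.61 without a call (edgeR adjusted p = 0.096 and 0.124).

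Monoamine and histamine genes gave 0 calls of 10, of which 5 were tested. The list level was 1.54 to 2.38 in Pmch-high and 1.07 to 1.39 in Pmch-low libraries, without overlap. Slc6a3 was not tested and overlapped. It was 9.39, 37.44 and 6.02 CPM in high 1 to high 3, 0.354 and 0.082 CPM in high 4 and high 5, and at most 0.694 CPM in Pmch-low libraries. Hdc, the histamine-forming enzyme of the tuberomammillary nucleus, was 3.86 to 7.96 CPM in Pmch-high and 1.03 to 3.58 CPM in Pmch-low libraries (edgeR adjusted p = 0.109, n = 5 a side). Slc18a2, the vesicular monoamine transporter, was 9.41 to 18.1 CPM in Pmch-high and 4.34 to 7.53 CPM in Pmch-low libraries (edgeR adjusted p = 0.0893, n = 5 a side). Neither gene overlapped between the sides, while Th and Tph2, the rate-limiting enzymes for dopamine and serotonin, did. Tanycytes, the glia lining the floor of the ventricle in the hypothalamus, gave 0 calls of 9 genes, of which 7 were tested. No gene of this list was without overlap. Among their leading members by size of change, Rarres2, Scn7a and Lhx2 had log2 fold changes of 0.97, 0.53 and -0.50 (edgeR adjusted p = 0.117, 0.179 and 0.113).

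Some thalamic genes rose with Pmch as well. Of 14 members of the thalamus and habenula list, 13 were tested, 4 rose and none fell. Of all 14, 6 lay above without overlap, and the median member difference was 1.07. Ntng1, which encodes the axon guidance protein netrin-G1, measured 45, 49.5, 49.0, 41.5 and 47.7 CPM in Pmch-high libraries, against 16.2, 20.3, 23.0, 17.4 and 20.7 CPM in Pmch-low libraries (edgeR log2 fold change 1.23 ± 0.14 SE, adjusted p = 0.00392, n = 5 a side). Tcf7l2, a transcription factor of thalamic neurons, measured 39.7, 40.7, 38.4, 23.5 and 18.6 CPM in Pmch-high libraries, against 6.05, 6.58, 11.3, 5.67 and 7.97 CPM in Pmch-low libraries (edgeR log2 fold change 2.07 ± 0.28 SE, adjusted p = 0.00896, n = 5 a side). Ntng1 was level across the Pmch-high side, and Tcf7l2 was higher in high 1 to high 3 than in high 4 and high 5.

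Synpo2 and Plekhg1 rose by 1.32 and 1.09 on the log2 scale (edgeR adjusted p = 0.0125 and 0.0319). Prkcd, a protein kinase C gene, Calb2, the calretinin gene, and Gbx2, a thalamic homeobox gene, had fold changes of 1.71, 1.57 and 2.10 on the log2 scale and were not called (edgeR adjusted p = 0.0811, 0.0959 and 0.0921). Only Ntng1 of the 4 called genes passed with high 4 and high 5 alone (edgeR adjusted p = 0.04). There the log2 fold changes were 1.30 for Synpo2, 1.04 for Plekhg1 and 1.45 for Tcf7l2.

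Of the vesicular glutamate transporters, Slc17a6 rose, while Slc17a7 ran the other way without a call. Slc17a6, the vesicular transporter VGLUT2 used by hypothalamic and thalamic neurons, measured 104, 122, 112, 59.3 and 85.5 CPM in Pmch-high libraries, against 11.7, 29.5, 22.1, 16.7 and 24.1 CPM in Pmch-low libraries (edgeR log2 fold change 2.19 ± 0.28 SE, adjusted p = 0.00592, n = 5 a side). Slc17a7, the transporter VGLUT1 of cortical neurons, measured 504, 538, 649, 932 and 1098 CPM in Pmch-high libraries and 1320 to 1607 CPM in Pmch-low libraries, below them without overlap but not called (edgeR log2 fold change -0.98 ± 0.21 SE, adjusted p = 0.0833). Slc17a6 with high 4 and high 5 alone missed the threshold (edgeR log2 fold change 1.77, adjusted p = 0.0762). Slc17a7 had a log2 fold change of -0.53 there (edgeR adjusted p = 0.276). Slc17a8 and Chat, markers of VGLUT3 and cholinergic neurons, were not called (edgeR adjusted p = 0.343 and 0.402).

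Some cortical genes were below the Pmch-low side, without a call. In the list of 14, 7 lay below without overlap, 0 lay above, and the median member difference was -0.64. Tbr1, a factor of deep cortical layers, measured 35.5, 36.7, 56.3, 124 and 95.9 CPM in Pmch-high libraries, against 126, 189, 167, 197 and 135 CPM in Pmch-low libraries (edgeR log2 fold change -1.26 ± 0.33 SE, adjusted p = 0.113, n = 5 a side). Cux2, a factor of upper layers, had a log2 fold change of -1.19 (edgeR adjusted p = 0.127). Neurod6 and Tshz2 ran the other way, with log2 fold changes of 0.475 and 0.071 and no call (edgeR adjusted p = 0.424 and 0.887). Neurod6 was 82.45, 75.23 and 65.91 CPM in high 1 to high 3, 27.32 and 12.46 CPM in high 4 and high 5, and 30.22 to 47.9 CPM in Pmch-low libraries. The list level was 5.59 to 6.24 in Pmch-high and 6.41 to 6.83 in Pmch-low libraries, and its difference of -0.67 shrank to -0.35 with high 4 and high 5 alone. DESeq2 called Tbr1 and Slc17a7 lower (adjusted p = 0.0113 and 0.00195) and did not call Cux2 (0.0552).

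The 12 striatal genes all overlapped between the sides, and 0 were called. Rgs9, Adora2a, Ppp1r1b and Drd2, genes of dopamine-responsive medium spiny neurons, had log2 fold changes of -0.69, -0.67, -0.65 and -0.62 (edgeR adjusted p from 0.183 to 0.264). The striatal list level differed by -0.56 over all 5 Pmch-high libraries and by 0.016 with high 4 and high 5 alone. In the hippocampus list, C1ql2, a synaptic organiser of dentate granule cells, was the 1 call of 10, of which 9 were tested. It measured 23.2, 26.6, 16.4, 8.84 and 7.71 CPM in Pmch-high libraries, against 1.29, 3.72, 1.79, 2.00 and 1.99 CPM in Pmch-low libraries (edgeR log2 fold change 2.91 ± 0.42 SE, adjusted p = 0.0125, n = 5 a side). C1ql2 was not called with high 4 and high 5 alone (edgeR adjusted p = 0.12). Spink8, Lct and Neurod2 were not called (edgeR adjusted p = 0.128, 0.123 and 0.0999).

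Cbln1 rose, and no other gene of the cerebellum list was called. This secreted synaptic organiser, used by cerebellar granule cells and also by thalamic neurons, measured 31.6, 40.2, 29.9, 29.5 and 51.2 CPM in Pmch-high libraries, against 8.23, 4.76, 8.22, 9.68 and 6.71 CPM in Pmch-low libraries (edgeR log2 fold change 2.26 ± 0.23 SE, adjusted p = 0.00224, n = 5 a side). It was the 1 call among 12 cerebellar genes, of which 9 were tested. Cbln1 passed with high 4 and high 5 alone (edgeR adjusted p = 0.0138). Zic1 was not called (edgeR adjusted p = 0.127) but did not overlap, at 64.58 to 83.15 CPM in Pmch-high and 14.94 to 60.52 CPM in Pmch-low libraries. The median member difference of the list was 0.67. Its level was 2.80 to 4.80 in Pmch-high and 2.53 to 2.74 in Pmch-low libraries. High 5 alone carried the granule cell genes Cbln3, at 59.0 CPM, and Gabra6, at 11.7 CPM, and the other 9 libraries of both sides held at most 1.75 and 0.177 CPM of them. Without high 5, the Cbln3 log2 fold change was -0.94, while Cbln1 stayed called in each fit that leaves out a library. Sncg, the gamma-synuclein gene, was the 1 call among 10 midbrain and hindbrain genes, of which only 2 were tested. It measured 17.4, 14.3, 10.2, 4.33 and 4.51 CPM in Pmch-high and 1.47 to 2.73 CPM in Pmch-low libraries (edgeR adjusted p = 0.0448, n = 5 a side). Sncg had an edgeR adjusted p of 0.499 with high 4 and high 5 alone.

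**Figure D4:**
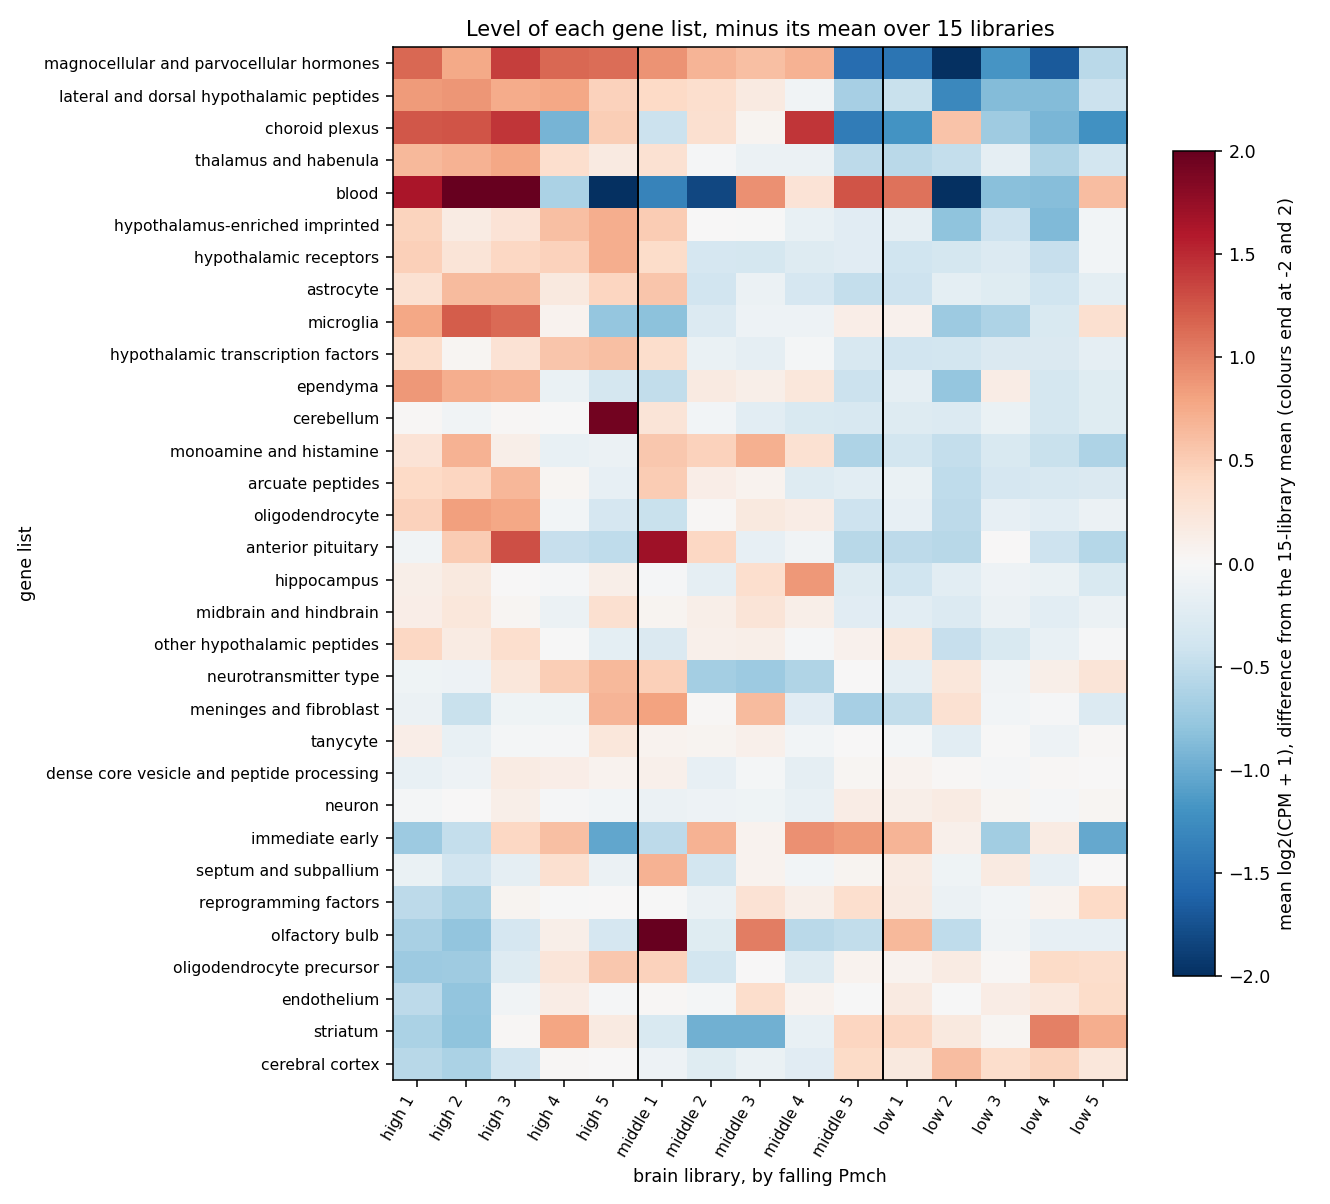
Level of each gene list, the mean log2(CPM + 1) of its members, in the 15 brain libraries minus the list's mean over them, with lists ordered by their difference between Pmch-high and Pmch-low libraries. The vasopressin and oxytocin list and the lateral and dorsal peptide list are higher in each of the first 9 libraries than in the other 6, while blood, microglia and choroid plexus lists are high in high 1 to high 3 and uneven elsewhere.

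Astrocyte genes gave 2 calls higher and 0 lower of 8, with 5 above without overlap and a median member difference of 0.62. Agt, the angiotensinogen gene, which astrocytes of the hypothalamus and brain stem express strongly, measured 74.8, 82.1, 83.6, 95.3 and 150 CPM in Pmch-high libraries, against 14.4, 30.8, 32.9, 17.9 and 18.5 CPM in Pmch-low libraries (edgeR log2 fold change 2.05 ± 0.29 SE, adjusted p = 0.0108, n = 5 a side). The GABA transporter gene Slc6a11 was 209 to 279 CPM in Pmch-high and 120.4 to 173 CPM in Pmch-low libraries (edgeR log2 fold change 0.79 ± 0.14 SE, adjusted p = 0.0332, n = 5 a side). Gfap, the intermediate filament gene, measured 638, 1279, 1097, 114 and 178 CPM in Pmch-high libraries, against 92.3, 92.9, 77.0, 77.8 and 104 CPM in Pmch-low libraries. Its high values were in high 1 to high 3 and it was not called (edgeR log2 fold change 2.88 ± 0.58 SE, adjusted p = 0.0614). With high 4 and high 5 alone Agt was called (edgeR log2 fold change 2.39, adjusted p = 0.0311), Slc6a11 was not (adjusted p = 0.0625), and Gfap had a log2 fold change of 0.69 (adjusted p = 0.369).

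The lists of other cell types gave 0 calls each, and several were set by high 1 to high 3. The complement gene C1qa, expressed by microglia, measured 95.4, 171, 129, 34.4 and 29.0 CPM in Pmch-high libraries and 28.9 to 46.4 CPM in Pmch-low libraries, so its high values were in high 1 to high 3 (edgeR log2 fold change 1.28, adjusted p = 0.117). The microglia list level differed by 1.29 for high 1 to high 3 and by -0.10 for high 4 and high 5. In the same order, the list levels of oligodendrocyte genes such as Mobp differed by 0.93 and 0.05, of ependymal genes such as Foxj1 by 1.05 and 0.042, and of blood genes such as the globin Hbb-bs by 2.41 and -1.22. The globin genes have near-identical copies, whose split is uncertain. Transthyretin (Ttr), a thyroid hormone carrier secreted by the choroid plexus, measured 1204, 1150.0, 1032, 1.86 and 210.2 CPM in Pmch-high libraries, against 1.49, 272, 11.3, 2.92 and 0.885 CPM in Pmch-low libraries, and reached 1729 CPM in middle 4. Ttr therefore did not keep to the side (edgeR log2 fold change 3.59 ± 1.67 SE, adjusted p = 0.177).

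**Figure D5:**
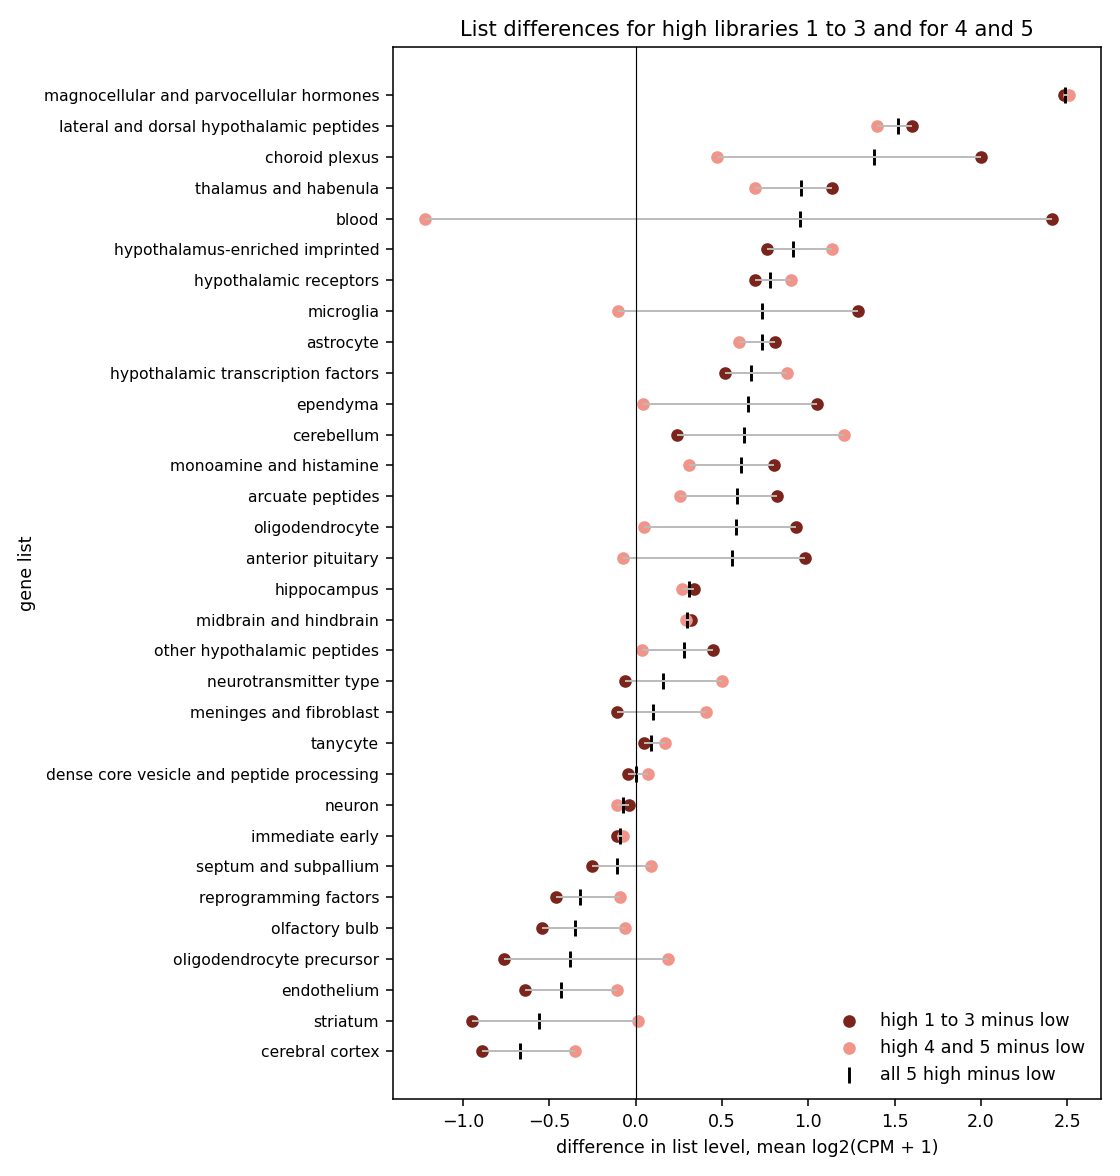
Difference in level of each gene list from the 5 Pmch-low libraries, for high 1 to high 3 (dark red), high 4 and high 5 (light red) and all 5 Pmch-high libraries (black tick), in mean log2(CPM + 1). The vasopressin and oxytocin list differs by 2.48 and 2.51, while the blood list differs by 2.41 and -1.22.

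The neuron list level was 9.07 to 9.24 in Pmch-high and 9.10 to 9.29 in Pmch-low libraries, with 0 calls of 6. Endothelial, oligodendrocyte precursor, meningeal, septal, olfactory bulb and immediate early lists each had 0 calls, and all of their members overlapped between the sides. By size of change these lists were led by the vascular receptor gene Flt1 (log2 fold change -0.65, edgeR adjusted p = 0.367), the precursor receptor gene Gpr17 (-0.67, adjusted p = 0.198), the matrix gene Dcn (1.43, adjusted p = 0.111), the homeobox gene Nkx6-2 (1.32, adjusted p = 0.113), the olfactory marker gene Omp (0.95, adjusted p = 0.543) and Npas4 (-0.80, adjusted p = 0.306). High 1 to high 3 set the Nkx6-2 value, at 67.2, 65.1 and 58.0 CPM, while high 4 and high 5 had 22.0 and 16.1 CPM and the Pmch-low libraries 13.9 to 19.9 CPM. Among the immediate early genes, Fos had medians of 22.5 CPM in Pmch-high and 17.6 CPM in Pmch-low libraries, and Egr1 had 136 CPM in Pmch-high and 183 CPM in Pmch-low libraries (edgeR adjusted p = 0.323 and 0.592). Of the reprogramming factors, Sox2, Klf4 and Myc were not called. Medians were 36.0 CPM in Pmch-high and 35.3 CPM in Pmch-low libraries for Sox2, 9.46 CPM in Pmch-high and 11.6 CPM in Pmch-low for Klf4, and 4.76 CPM in Pmch-high and 5.01 CPM in Pmch-low for Myc (edgeR adjusted p = 0.954, 0.577 and 0.304). Pou5f1, which encodes Oct4, was too low to test, at 0 to 0.177 CPM in Pmch-high and 0 to 2.44 CPM in Pmch-low libraries. It had 3 counts over the Pmch-high libraries and 47 over the Pmch-low libraries.

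Outside the lists, the called genes with the largest rises were Shox2, Abhd12b, Ppp1r17 and Sytl4. The homeobox gene Shox2 measured 22.5, 17.0, 18.8, 8.75 and 7.79 CPM in Pmch-high libraries, against 0.324, 0, 0.805, 0 and 0 CPM in Pmch-low libraries (edgeR log2 fold change 6.07 ± 0.76 SE, adjusted p = 0.00592, n = 5 a side). Abhd12b, Ppp1r17 and Sytl4 rose by 4.99, 4.31 and 3.39 on the log2 scale (edgeR adjusted p = 0.00444, 0.00615 and 0.0106), and each was called in all 10 fits that leave out a library. Ppp1r17 encodes a phosphatase inhibitor and Sytl4 a protein of secretory vesicles. Only Ppp1r17 of these 4 passed with high 4 and high 5 alone (edgeR adjusted p = 0.0495).

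Sparc and Gpx3 were among the genes with the lowest p-values. Sparc, a matrix protein gene of astrocytes and endothelium, measured 849.6, 877, 763, 587 and 666 CPM in Pmch-high libraries, against 184, 171, 274, 212 and 226 CPM in Pmch-low libraries (edgeR log2 fold change 1.79 ± 0.18 SE, adjusted p = 0.00224, n = 5 a side). Gpx3, a secreted glutathione peroxidase gene, measured 63.4, 44.6, 49.4, 37.8 and 40.1 CPM in Pmch-high libraries, against 9.52, 9.78, 15.0, 9.26 and 13 CPM in Pmch-low libraries (edgeR log2 fold change 2.03 ± 0.20 SE, adjusted p = 0.00224, n = 5 a side). Both kept a gap between the sides in every library, and both were called with high 4 and high 5 alone (edgeR adjusted p = 0.0138 and 0.0161).

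The 8 genes that fell did so by 0.61 to 1.67 on the log2 scale. Hkdc1, a hexokinase-related gene, measured 2.86, 2.40, 3.19, 6.28 and 4.26 CPM in Pmch-high libraries, against 15.3, 7.88, 13.9, 9.35 and 12.8 CPM in Pmch-low libraries (edgeR log2 fold change -1.67 ± 0.29 SE, adjusted p = 0.0332, n = 5 a side). Prss12, a neuronal serine protease gene, Wnt9a, a Wnt ligand gene, and Rtn4r, the Nogo receptor gene, fell by 1.20, 1.07 and 1.00 on the log2 scale (edgeR adjusted p = 0.0494, 0.016 and 0.0481). The potassium channel genes Kcnk4 and Kcnj11, the syntaxin gene Stx1a and Mpped1 fell by 0.89, 0.77, 0.80 and 0.61 (edgeR adjusted p from 0.0452 to 0.0483). None of the 8 was called with high 4 and high 5 alone, with the Y-linked level as a term, or without high 1, high 2 or high 3. Their log2 fold changes with high 4 and high 5 alone ran from -1.20 for Hkdc1 to -0.57 for Mpped1.

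Avp and Trh divided the middle libraries. Avp was 26.3 to 90.9 CPM and Trh 11.3 to 29.8 CPM in middle 1 to middle 4, and 0.555 and 1.98 CPM in middle 5. Middle 5 correlated with the 5 Pmch-low libraries at 0.931 to 0.984 across the variable genes. Middle 1 held 662 CPM of Gh, the growth hormone gene of the pituitary, with 67.9 CPM of Prl and 96.8 CPM of Pomc, so pituitary transcripts were not limited to the Pmch-high side. Of the listed peptides, edgeR called Avp, Hcrt, Trh and Gal and none of the arcuate or other peptides. DESeq2 also called Nts, Oxt, Pomc and Tac2 higher. With edgeR, 4 of 14 thalamus and habenula genes rose beside the called peptides. The size of the hypothalamic part of each brain piece was not measured.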

How the data were processed

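The authors deposited estimated counts per gene, and 30.2% of the brain values above 0 were not whole within 1e-06. The submitters' processing notes name the build GRCm39 and DESeq2. Which aligner, counter, annotation and strand setting were used is not given in the sources used here, so overlapping, antisense and duplicated genes are uncertain. No coordinates are given, because the genome at hand is of an earlier build.

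CPM was the count divided by the library total, times 1000000. Counts were rounded and tested with edgeR 4.0.16 in R 4.3.3 (TMM scaling, filterByExpr by side, quasi-likelihood test, Benjamini-Hochberg adjustment over all tested genes, threshold 0.05). Pmch stayed in totals and was not tested. List levels are the mean log2(CPM + 1) of 33 lists with 306 genes, all matched by name. The gene lists, the sides and the naming rule were chosen with earlier results of these data known, so lists have counts and medians and no test. The rule named every peptide of the 4 peptide lists, up to 4 members of each other list by size of change, the 10 largest rises and 10 largest falls at a mean of 1 CPM or more, and the reprogramming factors. Exceptions are Gpr165, Nap1l5, Plekhg1, Sparc, Gpx3, AW551984, Patj and list members given by value, which were named after their values were seen.

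Alternatives were DESeq2 1.42.0, other scalings, no filter, other terms and leaving out libraries. Splits of the sides and other low cuts were added after seeing the data. Total counts were 9736496 to 14444384 per library, and 3 counts correspond to 0.208 to 0.308 CPM. Intervals and floors cover counting error only, since reads are not independent molecules. No pair of the 105 library pairs agreed within sampling noise, with a lowest chi-square per gene of 6.24. The test script was checked on simulated counts with the same spread between libraries for every gene, which does not cover the uneven Pmch-high side. Some genes that the naming rule selects are not reported here.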

Additional observations from a re-analysis of the deposited data

Results flagged for a closer look

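Dixon's test for a single outlying library was run on 152 groups of 5 libraries, and 7 values passed its critical value, where chance gives about 1 in 20 groups. On the Pmch-high side, high 5 stood above the other 4 in the level of the cerebellum list, at 4.80 in mean log2(CPM + 1). High 1 stood above the other 4 for Nhlh2, at 6.08 CPM, and for Sytl4, at 19.1 CPM. On the Pmch-low side, low 2 stood apart in the choroid plexus list, at a level of 3.30, and in the oligodendrocyte list, at a level of 8.38. The anterior pituitary list was highest in low 3, at a level of 0.74. The Y-linked list was highest in low 4, at a level of 4.92, a small gap within a narrow range. Outside the brain, Pmch was above 3 counts in 1 of 7 spleen libraries, at 0.4 CPM, and in 0 of the 74 kidney, liver, small intestine, heart and skeletal muscle libraries.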

How the results depend on the processing

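Against 70 genes higher and 8 lower between Pmch-high and Pmch-low libraries, DESeq2 called 1345 and 571, log2 Pmch as a numeric term over 15 libraries 1634 and 626, and the Y-linked level as a term 26 and 0. Library totals without TMM scaling called 77 and 2, TMM without mitochondrially encoded genes 73 and 6, and no filter on low counts 84 and 10. Leaving out 1 library gave 22 to 2863 higher and 0 to 2155 lower, and the counts over 1000 came without high 4 and without high 5. Among the splits added after seeing the data, the 6 lowest libraries as the low side gave 308 and 107, the 9 libraries with Pmch against 6 gave 107 and 39, high 1 to high 3 alone gave 4784 and 4899, and high 4 and high 5 alone gave 20 and 0. The cause of these shifts was not tested. No paired analysis was possible because the columns carry no replicate number or genotype. List differences moved by more than the spread between libraries in these cases. With a pseudocount of 0.5 CPM they were 1.80 for lateral and dorsal hypothalamic peptides and 0.95 for hypothalamic transcription factors. With 9 libraries against 6 they were 0.49 for hypothalamic receptors, 0.21 for olfactory bulb and 0.53 for astrocyte. With high 4 and high 5 alone they were 0.26 for arcuate peptides, 0.88 for hypothalamic transcription factors, 0.31 for monoamine and histamine, -0.07 for anterior pituitary, 0.69 for thalamus and habenula, -0.35 for cerebral cortex, 0.016 for striatum, 0.50 for neurotransmitter type, 0.47 for choroid plexus, 0.042 for ependyma, 0.05 for oligodendrocyte, 0.19 for oligodendrocyte precursor, -0.10 for microglia, -0.11 for endothelium and -1.22 for blood. Of the alternative fold changes of named genes, 2299 kept their direction and side of the threshold, 208 fell short of it, 267 newly passed it and 65 changed sign. Those that changed sign were not called between the sides. With high 4 and high 5 alone the log2 fold changes were Sst -0.15, Cck -0.89, Bdnf -0.46, Tph2 -0.71, Gh -3.98, Lct -0.05, Omp -0.43, Dlx2 0.22, Slc17a8 0.18, Mia -0.70, Stmn2 -0.031, Tubb3 -0.11, Mog -0.11, Cspg4 0.35, C1ql1 -0.11, Pdgfra 0.45, C1qa -0.27, P2ry12 -0.13, Cx3cr1 -0.08, Flt1 0.25, Pecam1 0.24, Col1a1 0.19, Lum -0.17, Col1a2 0.57, Hbb-bs -1.60, Hbb-bt -2.17, Alas2 -0.64, Hba-a1 -1.56, Fosb 0.15, Sox2 -0.0072 and Klf4 0.13. With high 1 to high 3 alone they were Vip 0.13, Cbln3 -1.04 and Chat -0.17. With 9 libraries against 6 they were Vip 0.10, Doc2g 1.09, Dlx2 0.12, Chat -0.12 and Col1a1 0.0062. With the 6 lowest libraries they were Cck -0.08 and Sox2 -0.0059. With the Y-linked term they were Cck -0.28, Gh -0.61, Omp -0.24, Pdgfra 0.13 and Col1a2 0.08. With Pmch as a numeric term (per log2 unit) they were Vip 0.014 and Doc2g 0.13. Over the fits without 1 library they ran from -0.17 to 0.08 for Vip, -0.09 to 0.30 for Cck, -0.94 to 3.99 for Cbln3, -0.44 to 2.60 for Omp, -0.41 to 0.07 for Pdgfra, -0.59 to 0.036 for Egr1 and -0.05 to 0.08 for Sox2.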

Other observations

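The 9 brain libraries above 20 CPM of Pmch and the 6 below 1 CPM gave 107 genes higher and 39 lower with edgeR, and 57 of the 78 calls between the sides were among them. The level of the hypothalamic receptor list was 1.82 to 1.91 in middle 2 to middle 4, under the 2.43 to 2.89 of the Pmch-high libraries and within the 1.70 to 2.11 of the Pmch-low libraries. In middle 2 to middle 4, mitochondrially encoded genes took 21.8%, 11.7% and 18.4% of counts, against 4.49% to 7.96% in the other 12 libraries. Middle 1 also held the highest level of the olfactory bulb list, 6.15 in mean log2(CPM + 1), where the Pmch-high libraries had 2.86 to 3.77 and the Pmch-low libraries 3.14 to 4.31.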
